A study of Mus musculus with 6 samples.

Results

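The sarcomere is the contractile unit of striated muscle. The 40 genes described here encode its thick and thin filaments, the Z disc that anchors the thin filaments, the M band that links the thick filaments, and factors that fold and place these proteins. The genes were chosen by function, with earlier results of these data known. A probe set was counted as theirs if the array annotation gave it exactly 1 gene symbol and that symbol was one of the 40. All 40 were on the array, with 66 of its 45101 probe sets, and they are 40 of 18194 genes measured.

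The cells were mouse myoblasts, the dividing precursors of skeletal muscle fibres, taken from the hindlimbs of C57BL/6JRj males 9 to 15 weeks of age. They were grown for 72 hours on collagen I or on fibronectin, 2 matrix proteins that cells bind through different integrins. Medium was the same on both coatings, Ham's F-10 with 20% fetal bovine serum and basic fibroblast growth factor at 2.5 ng/ml, additions that keep myoblasts dividing, and no sample was labelled as moved to a differentiation medium. Each coating had 3 samples, 6 in all, set side by side to ask what the coating does to expression. The labels name no genetic change, do not say how the cells were purified and leave unsaid whether each sample was its own culture or animal. The p-values therefore weigh differences against sample-to-sample spread alone, and that spread may be technical.

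Myoblasts that stop dividing turn on Myog and Mef2c and then the genes of the sarcomere, first embryonic and slow forms and later adult fast forms, and the filaments assemble with the help of factors such as the chaperone Unc45b and the methyltransferase Smyd1. Myosin heavy and light chains build the motor, actin and the troponins build and switch the thin filament, and titin spans from the Z disc to the M band. The genes are used as markers of how far muscle cells have differentiated, and a signal from a whole culture adds up dividing and differentiating cells. In such bulk samples fewer cells of a type and less RNA per cell cannot be told apart.

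Signals are the deposited log2 values, so a difference of 1 is a doubling of signal. Where a gene had several probe sets, the one brightest on average over the 6 samples stood for it. Testing required an average of at least 2.33, which is the midpoint of all probe sets' averages. Of the 40 genes, 26 passed this filter and 14 lay below it. Signals of different probe sets do not share a scale, so levels are not compared between genes. Each gene is compared with itself across samples, and where genes are paired, only the change of their difference between coatings is read. Changes are fibronectin minus collagen, and "adjusted p" means limma's moderated test with p-values adjusted by Benjamini-Hochberg across the 10941 genes tested, with a threshold of 0.05.

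Many muscle genes are switched on through short elements just before their start, so the stretches before the start of 5 of them are shown. They are the 3 largest and the 2 smallest falls among members past the threshold that have 1 listed start, at the outer end of the gene, and they include both members of the actin and troponin C pairs compared further on. The sequences are from RefSeq, assembly GRCm38.p6, 250 bases up to the base before the start, 5′ to 3′ on the gene's strand. Capitals mark matches on either strand to the E-box CANNTG, which MyoD family factors bind, to the MCAT element CATTCC, to the CArG box of Srf and to the Mef2 site.
Acta1 (chr8:123894776-123895025, minus strand): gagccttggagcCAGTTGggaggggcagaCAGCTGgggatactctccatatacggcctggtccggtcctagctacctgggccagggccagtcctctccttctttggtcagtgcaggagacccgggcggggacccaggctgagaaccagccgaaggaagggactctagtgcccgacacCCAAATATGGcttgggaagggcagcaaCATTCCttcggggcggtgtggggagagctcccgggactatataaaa
Tnnc2 (chr2:164779735-164779984, minus strand): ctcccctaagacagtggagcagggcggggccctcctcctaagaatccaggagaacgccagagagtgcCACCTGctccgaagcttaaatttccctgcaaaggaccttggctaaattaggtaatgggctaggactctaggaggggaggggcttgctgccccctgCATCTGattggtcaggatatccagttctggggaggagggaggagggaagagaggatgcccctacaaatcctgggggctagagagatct
Tnnc1 (chr14:31208062-31208311, plus strand): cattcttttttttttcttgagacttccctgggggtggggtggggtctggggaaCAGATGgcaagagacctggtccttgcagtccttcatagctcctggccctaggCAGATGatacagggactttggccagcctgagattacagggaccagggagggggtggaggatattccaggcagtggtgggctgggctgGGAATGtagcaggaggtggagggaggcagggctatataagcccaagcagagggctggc
Actc1 (chr2:114052876-114053125, minus strand): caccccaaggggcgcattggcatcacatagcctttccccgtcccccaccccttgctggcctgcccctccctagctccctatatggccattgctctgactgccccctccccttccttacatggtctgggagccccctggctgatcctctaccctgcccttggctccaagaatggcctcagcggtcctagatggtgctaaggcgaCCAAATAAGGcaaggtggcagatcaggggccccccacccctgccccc
Tnnt1 (chr7:4515976-4516225, minus strand): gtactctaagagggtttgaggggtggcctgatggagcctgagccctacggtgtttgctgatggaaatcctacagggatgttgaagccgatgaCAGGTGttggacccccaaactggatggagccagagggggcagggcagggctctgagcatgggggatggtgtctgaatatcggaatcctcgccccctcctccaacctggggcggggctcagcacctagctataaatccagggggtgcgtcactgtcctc

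Both actin genes held a CArG box, which began 73 bases before the start in Acta1 and 47 bases before it in Actc1. Acta1 also had an MCAT element and 2 E-boxes, whereas the capitals in Actc1 are its CArG box alone. Tnnc2 and Tnnc1 had 2 E-boxes each, Tnnc1 an MCAT element on the opposite strand, and Tnnt1 1 E-box. Of the 40 genes 31 had a listed window that runs on to 50 bases past the start, 35 windows in all. A CArG box was found in 5 of the 35, or 14.3%, and in 1.63% of all 32851 mouse windows of that length. A Mef2 site was found in 7 of the 35 windows (20.0%) and in 1.86% of all windows, and CATTCC in 12 (34.3%) and 14.7%. The E-box CANNTG, a short motif that occurs often, was in 30 windows of members (85.7%) and in 72.3% of all, and its form CAGCTG, which overlaps it, was in 14 of the 35, against 16.3% of all. These are matches of letters only, and binding was not measured.

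The sarcomere genes of this list were lower on fibronectin in each structural group that had a testable member, except the thin filament ends. Of the 26 tested members 25 fell and 0 rose, beside 20.2% of all genes tested that fell, 19.9% that rose and 40.1% that did either. With limma and no adjustment, 26 were lower and 0 higher at p under 0.05, beside 24.3% and 25% of all genes tested. In all 26, each fibronectin sample lay below each collagen sample, a pattern seen in 25.9% of genes tested. The median log2 change was -0.79, from -1.56 to -0.24, and the median over all genes tested was 0.00. Falls of at least 2-fold were found in 9 members, beside 1.01% of genes tested. Those 9 were 34.6% of the tested members and 8.18% of the 110 genes that fell by that much. A gene that fell can pass the filter through its collagen signal alone, as Myom1 and Klhl41 did. One that rose can pass through its fibronectin signal alone. The count over tested members therefore includes genes that passed only through the coating where they were higher. With no filter 29 of the 40 fell and 0 rose, beside 9.98% of 18194 genes that fell.

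**Figure D1:**
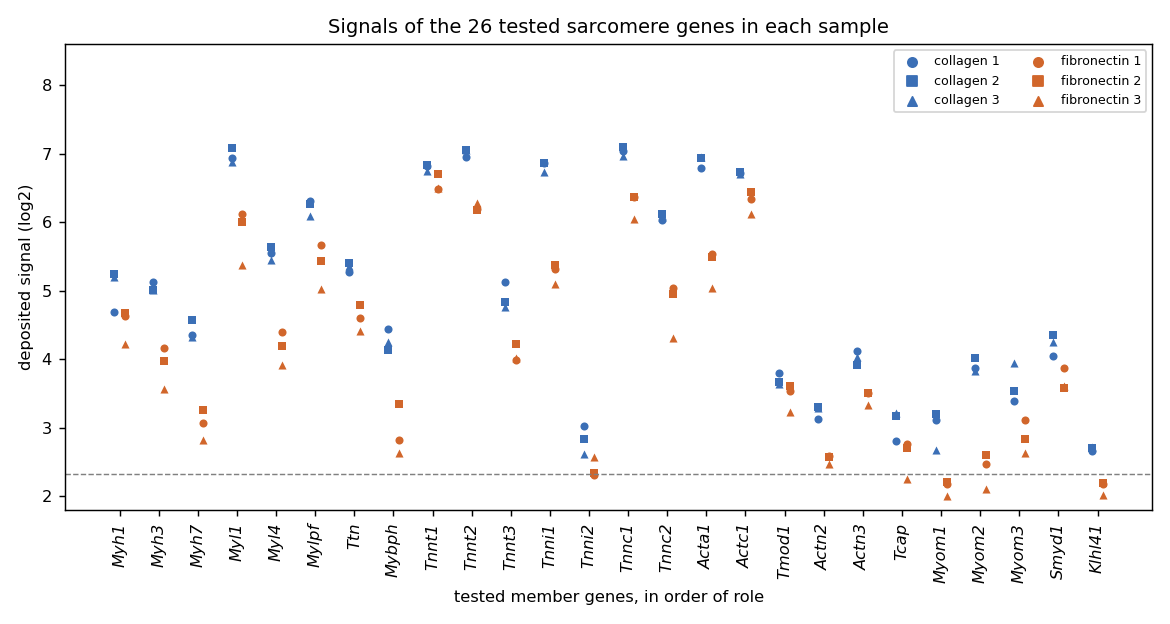
Deposited log2 signal (vertical axis) of each of the 26 tested members in every sample, 3 on collagen (blue) and 3 on fibronectin (orange), with genes in order of their role and the filter as a dashed line. In each gene all 3 fibronectin samples lie below all 3 collagen samples, and fibronectin replicate 3 (orange triangles) is the lowest of its coating in 21 of the 26.

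Among the myosin heavy chains, those of embryonic and slow muscle fell most clearly. Signals of Myh3, the embryonic heavy chain (Entrez gene 17883), were 5.12, 5.02 and 5.01 on collagen and 4.16, 3.97 and 3.56 on fibronectin. The fibronectin samples were all lower and were also further apart, and the fall was 2.23-fold, with a log2 change of -1.15 ± 0.14 (SE) and adjusted p = 0.000516. Myh7, the slow and cardiac heavy chain, had signals of 4.36, 4.57 and 4.33 on collagen and 3.07, 3.26 and 2.82 on fibronectin. It fell 2.59-fold, with a log2 change of -1.37 ± 0.11 (SE) and adjusted p = 0.00011. Myh8, the perinatal heavy chain, stayed below the filter, with signals from 1.70 to 1.78 on collagen and from 1.09 to 1.39 on fibronectin.

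The adult fast heavy chains gave little or no clear signal. Myh2 and Myh4, of fast fibres, lay below the filter in every sample, at 0.79 and 0.93 on average, and their coatings overlapped. Myh1, another fast heavy chain, was represented by a probe set of a type that can bind several transcripts, with signals of 4.69, 5.25 and 5.21 on collagen and 4.64, 4.68 and 4.22 on fibronectin. Collagen replicate 1 lay close to the fibronectin samples, and the fall of 1.45-fold (log2 SE 0.17) passed narrowly, with an adjusted p of 0.0386. The call was lost in 7 of 13 other settings, among them without collagen replicate 2 (0.122), collagen replicate 3 (0.113), fibronectin replicate 1 (0.0562) or fibronectin replicate 3 (0.112), over a range of adjusted p from 0.00911 to 0.122. A second Myh1 probe set of a type that can bind related genes changed by -0.55, and the third, of the type made for 1 transcript, averaged 0.91 on collagen and 0.83 on fibronectin, below the filter on both. Whether the Myh1 signal came from related heavy chains was not tested. Acta1, Tnni1, Myl1, Tnnt1, Tnnt3 and Tcap were also represented by probe sets of the type that can bind several transcripts.

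Of the light chains and thick filament partners, Myl4, Myl1, Mylpf, Mybph and Ttn were bright enough to test, and all 5 fell. Myl4, the embryonic and atrial essential light chain, had signals of 5.55, 5.64 and 5.45 on collagen and 4.40, 4.19 and 3.91 on fibronectin. Its fall was 2.6-fold, with a log2 change of -1.38 ± 0.12 (SE) and adjusted p = 0.000121. A second, dimmer Myl4 probe set averaged 2.15, below the filter, and changed by -0.42, so that the mean of both probe sets gave -0.90. Myl1, the fast essential light chain, went from 6.96 ± 0.10 to 5.83 ± 0.40 (SD, n = 3), or 2.19-fold lower, and Mylpf, the fast regulatory light chain, from 6.22 ± 0.12 to 5.38 ± 0.32, or 1.79-fold lower, with adjusted p of 0.00186 and 0.00312. In both genes fibronectin replicate 3 was the lowest sample, at 5.37 and 5.03. Myl2 and Myl3, the light chains of slow and cardiac muscle, were below the filter, and Myl2 was the 1 member of the 40 whose mean was higher on fibronectin, by 0.13 with overlapping samples.

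Signals of Mybph, a myosin-binding protein of the thick filament, were 4.43, 4.14 and 4.26 on collagen and 2.82, 3.35 and 2.64 on fibronectin. Its fibronectin samples spread widely, from 2.64 to 3.35, yet stayed below every collagen sample, and the fall was 2.54-fold, with a log2 change of -1.34 ± 0.17 (SE) and adjusted p = 0.000686. Ttn, the giant spring that spans from the Z disc to the M band, had signals of 5.28, 5.40 and 5.36 on collagen and 4.60, 4.79 and 4.41 on fibronectin and fell 1.68-fold, with a log2 change of -0.75 ± 0.09 (SE) and adjusted p = 0.000631. The other Ttn probe sets that passed the filter changed by -0.61 and -0.43. Averaging all 6 Ttn probe sets, 3 of them below the filter, gave -0.34 (adjusted p = 0.00969; 1.24e-05 to 0.00969 over the alternatives). Mybpc1, the slow myosin-binding protein C, lay just below the filter at a mean of 2.12, with signals from 2.39 to 2.89 on collagen and from 1.44 to 1.97 on fibronectin. The other, dimmer Mybpc1 probe sets both changed by -0.04. The fast form Mybpc2 was near the lower end of the array's range on both coatings, at 0.76 and 0.67.

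All 7 troponins, which make the thin filament respond to calcium, passed the filter and fell, by amounts from 1.18-fold to 2.95-fold. Signals of Tnni1, the inhibitory subunit of slow muscle (Entrez gene 21952), were 6.87, 6.86 and 6.74 on collagen and 5.31, 5.38 and 5.10 on fibronectin. The coatings were far apart relative to the spread within them, and the fall was 2.95-fold, with a log2 change of -1.56 ± 0.08 (SE) and adjusted p = 1.68e-05, the largest log2 fall among the tested members. Tnni2, the inhibitory subunit of fast muscle, had signals of 3.03, 2.84 and 2.62 on collagen and 2.32, 2.34 and 2.57 on fibronectin, close to the filter. It fell 1.34-fold, with a log2 change of -0.42 ± 0.11 (SE) and adjusted p = 0.0183, a call that was lost without collagen replicate 2 (0.055), fibronectin replicate 1 (0.0602) or fibronectin replicate 2 (0.0558), over a range of adjusted p from 0.00711 to 0.0602.

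Tnnc2, the calcium-binding subunit of fast muscle whose upstream sequence is shown above, had signals of 6.03, 6.12 and 6.07 on collagen and 5.04, 4.95 and 4.31 on fibronectin. The SD was 0.04 on collagen and 0.39 on fibronectin, where replicate 3 was far below the others, and the fall was 2.47-fold, with a log2 change of -1.31 ± 0.17 (SE) and adjusted p = 0.000787. Tnnc1, the slow and cardiac form, had signals of 7.04, 7.09 and 6.96 on collagen and 6.37, 6.36 and 6.04 on fibronectin and fell 1.71-fold, with a log2 change of -0.77 ± 0.09 (SE) and adjusted p = 0.000521. Both troponin C genes were lowest in fibronectin replicate 3.

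Among the troponin T genes, which tie the complex to tropomyosin, Tnnt2, the cardiac and embryonic form, had signals of 6.96, 7.05 and 7.05 on collagen and 6.19, 6.18 and 6.28 on fibronectin. These were among the tightest replicates of the members, and the fall was 1.75-fold, with a log2 change of -0.80 ± 0.05 (SE) and adjusted p = 3.78e-05. That Tnnt2 probe set is of the type that can bind related transcripts. A second one, of the other type that can bind several transcripts, gave -0.75. The third, of the type made for 1 transcript, averaged 0.83 on collagen and 0.62 on fibronectin, below the filter with overlapping samples. Tnnt3, the fast form, fell 1.77-fold, from 4.90 ± 0.20 to 4.08 ± 0.13 (SD, n = 3; adjusted p = 0.000736). Tnnt1, the slow form, changed least, with signals of 6.82, 6.83 and 6.75 on collagen and 6.49, 6.71 and 6.50 on fibronectin. Its fibronectin replicate 2 came within 0.04 of the lowest collagen sample, and the fall was 1.18-fold, with a log2 change of -0.24 ± 0.07 (SE) and adjusted p = 0.0247. That call was lost in 6 of 14 other settings, including without collagen replicate 1 (0.062), collagen replicate 2 (0.0765), fibronectin replicate 1 (0.0806) or fibronectin replicate 3 (0.083), over a range of adjusted p from 0.00551 to 0.083.

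Both striated muscle actins fell. Acta1, the skeletal muscle actin (Entrez gene 11459), had signals of 6.78, 6.94 and 6.94 on collagen and 5.54, 5.49 and 5.04 on fibronectin. It fell 2.89-fold, with a log2 change of -1.53 ± 0.13 (SE) and adjusted p = 0.000115. Actc1, the cardiac actin that embryonic and cultured skeletal muscle cells also express, had signals of 6.71, 6.73 and 6.70 on collagen and 6.34, 6.44 and 6.12 on fibronectin. Collagen samples of Actc1 had an SD of 0.02, and the fall was 1.34-fold, with a log2 change of -0.42 ± 0.08 (SE) and adjusted p = 0.00445.

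Proteins of the pointed end of the thin filament were mostly dim. Tmod1, which caps that end, had signals of 3.80, 3.67 and 3.63 on collagen and 3.53, 3.61 and 3.23 on fibronectin and was the 1 tested member that did not pass, with a log2 change of -0.25 ± 0.10 (SE) and adjusted p = 0.0837. It passed without fibronectin replicate 2 (log2 change -0.32, 0.0428) and with the replicate number as a block (0.0407), and its change was -0.13 without fibronectin replicate 3, over a range of adjusted p from 0.0407 to 0.216. Lmod3, a leiomodin that nucleates actin filaments in skeletal muscle, was below the filter, with signals from 1.75 to 2.33 on collagen and from 0.97 to 1.19 on fibronectin. The coatings of Lmod3 did not overlap, nor did those of Lmod2, from 1.06 to 1.14 on collagen and from 0.58 to 0.89 on fibronectin.

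**Figure D2:**
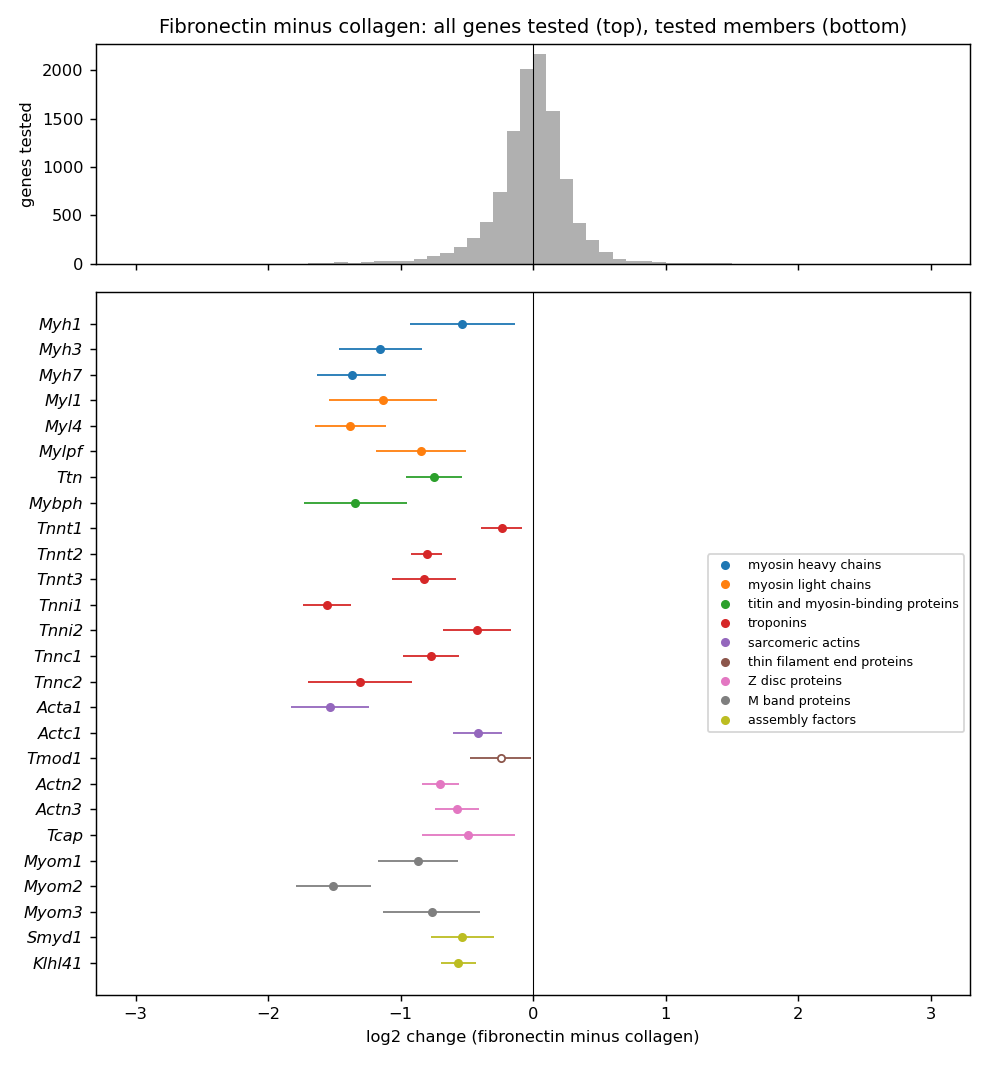
Log2 change, fibronectin minus collagen (horizontal axis), for all 10941 genes tested as a histogram (top) and for the 26 tested members with limma's 95% confidence interval, coloured by role (bottom). Filled points passed the adjusted threshold; the open point is Tmod1, and all 26 lie to the left of 0, between -1.56 and -0.24.

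At the Z disc, which crosslinks the thin filaments of neighbouring sarcomeres, the 3 members bright enough to test fell by less than 2-fold. Actn2, a sarcomeric alpha-actinin, had signals of 3.13, 3.31 and 3.29 on collagen and 2.58, 2.57 and 2.47 on fibronectin and fell 1.62-fold, with a log2 change of -0.70 ± 0.06 (SE) and adjusted p = 0.000143. Actn3, the alpha-actinin of fast fibres, fell 1.49-fold, from 4.02 ± 0.11 to 3.45 ± 0.10 (SD, n = 3; adjusted p = 0.000681). Tcap, which caps titin at the Z disc, had signals of 2.81, 3.17 and 3.22 on collagen and 2.76, 2.70 and 2.26 on fibronectin, so that its collagen replicate 1 and fibronectin replicate 1 nearly met. The fall of 1.4-fold (adjusted p = 0.0346) was lost in 6 of 13 other settings, including without collagen replicate 2 (0.105), collagen replicate 3 (0.104) or fibronectin replicate 3 (0.0794) and with the replicate number as a block (0.0505), over a range from 0.0129 to 0.105. Xirp1, an actin-binding repeat protein of muscle attachment sites, lay below the filter, from 2.08 to 2.42 on collagen and from 1.56 to 1.63 on fibronectin. Myot, another Z disc protein, was at 1.25 and 0.66 on average, and Myoz1 and Myoz2, which bind calcineurin at the Z disc, overlapped between coatings with changes of -0.13 and -0.09.

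All 3 myomesins, which crosslink thick filaments at the M band, fell. Signals of Myom2, the form of fast and cardiac muscle, were 3.87, 4.01 and 3.83 on collagen and 2.47, 2.61 and 2.11 on fibronectin. The fall was 2.84-fold, with a log2 change of -1.51 ± 0.12 (SE) and adjusted p = 0.000103, and a second probe set that passed the filter gave -0.80. Both of these Myom2 probe sets are of the type that can bind related transcripts, and the other 2, of the type made for 1 transcript, stayed below the filter with changes of -0.16 and -0.12. Myom1, found in most striated muscle, fell 1.82-fold, from 3.00 ± 0.28 to 2.13 ± 0.11, the latter below the filter. Myom3, a myomesin of slow and intermediate fibres, fell 1.7-fold, from 3.63 ± 0.28 to 2.86 ± 0.24 (SD, n = 3 for both genes; adjusted p of 0.0016 and 0.00691).

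Both assembly factors bright enough to test fell. Smyd1, a methyltransferase that works with Hsp90 in myosin folding, had signals of 4.05, 4.36 and 4.26 on collagen and 3.88, 3.58 and 3.60 on fibronectin and fell 1.45-fold, with a log2 change of -0.54 ± 0.10 (SE) and adjusted p = 0.00498. A second probe set of Smyd1 that passed the filter changed by -0.31 and did not pass in the fit over probe sets (adjusted p = 0.11). The other Smyd1 probe sets lay below the filter, with changes from -0.49 to -0.03. With its probe sets averaged Smyd1 was below the filter and was not tested. Klhl41, a kelch protein that stabilises nebulin, had signals of 2.66, 2.71 and 2.72 on collagen and 2.18, 2.19 and 2.02 on fibronectin. It was the member just above the filter, at a mean of 2.41, and fell 1.48-fold, with a log2 change of -0.56 ± 0.06 (SE) and adjusted p = 0.000274. Unc45b, the myosin chaperone of muscle, was below the filter on average, with signals from 1.95 to 2.52 on collagen and from 1.76 to 1.95 on fibronectin.

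By probe set, the pattern was the same in direction. Of the 66 probe sets 32 reached the filter, and 28 of them were lower and 0 higher in a limma fit over all 22496 probe sets that reached it, beside 15.8% of those that were lower. The 4 that did not pass were the 2 bright Myh1 probe sets (adjusted p of 0.0506 and 0.057), the second Smyd1 probe set and that of Tmod1 (0.106), all with negative changes. The Myh1 probe set that represents the gene passed in the fit over genes and missed here with the same signals.

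**Figure D3:**
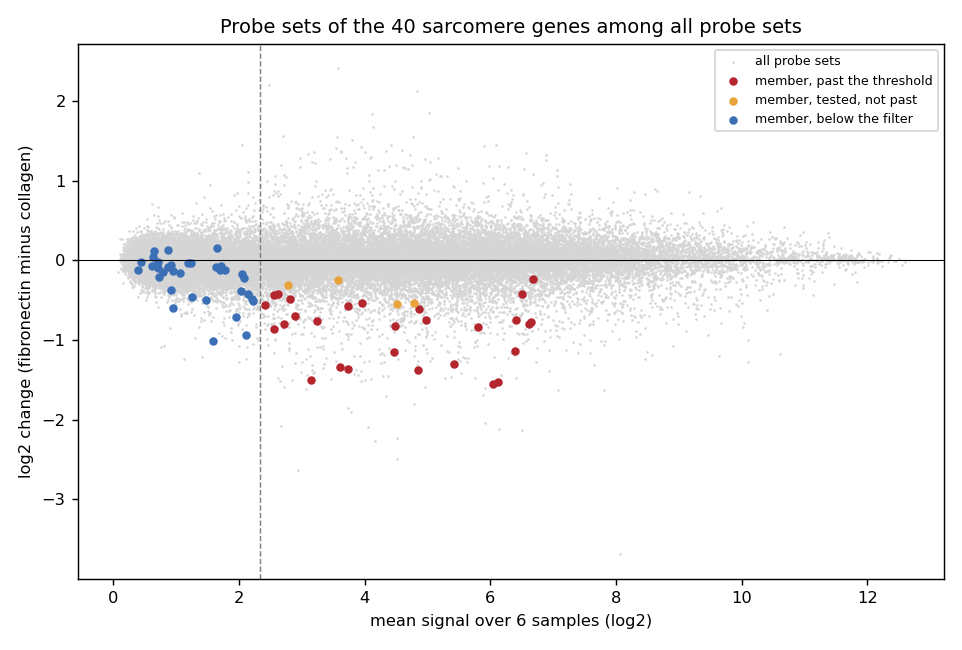
Log2 change, fibronectin minus collagen (vertical axis), against mean signal over the 6 samples (horizontal axis) for all 45101 probe sets (grey) and the 66 probe sets of the sarcomere genes, with the filter as a dashed line. The 28 red points passed the adjusted threshold in the fit over probe sets and lie below 0, the 4 orange points did not, and the blue points below the filter gather near 0 as the signal falls.

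The 14 members below the filter were Myh2, Myh4, Myh8, Myl2, Myl3, Mybpc1, Mybpc2, Lmod2, Lmod3, Xirp1, Myot, Myoz1, Myoz2 and Unc45b. Their mean signals lay between 0.71 and 2.12. In 13 of the 14 the fibronectin mean was lower, and in 8 the coatings did not overlap, a pattern found in 6.96% of the 7253 genes below the filter. In the fit without the filter, where 9.98% of all genes were lower, 7 of them passed, all lower: Myh8, Myl3, Mybpc1, Lmod2, Lmod3, Xirp1 and Myot, with adjusted p from 0.00376 for Xirp1 to 0.0405 for Myl3. These calls rest on the brightest probe set of each gene. The other, dimmer probe sets of Mybpc1 both changed by -0.04, and those of Myl3 by -0.08 and -0.14. Log2 signals near the array's lower end understate changes, so sizes are not ranked among the members below the filter.

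The sizes of the falls were compared within families. For each of 16 pairs within a family, the log2 difference between the genes was taken in each sample, which removes any shift the pair shares. In 12 of the 16 pairs the difference did not overlap between coatings, as was the case in 55.6% of all pairs of tested genes. An exact two-sided permutation test of 3 against 3 samples cannot go below p = 0.1, the value these 12 pairs had (adjusted p = 0.133 over the 16), so no pair could pass the threshold.

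Acta1 minus Actc1 was 0.07, 0.21 and 0.24 on collagen and -0.80, -0.95 and -1.08 on fibronectin. The fall of Acta1 was the larger one in these samples, with a change in their difference of -1.11. Tnni1 minus Tnni2 went from 3.99 ± 0.15 to 2.85 ± 0.28 (SD, n = 3), a change of -1.13, although Tnni2 lay close to the filter, where changes of dim probe sets are compressed, so the sizes of this pair are not ranked.

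Tnnc1 minus Tnnc2 was 1.01, 0.97 and 0.89 on collagen and 1.33, 1.42 and 1.73 on fibronectin, a change of 0.53. In troponin T the slow Tnnt1 had a smaller fall than Tnnt2 and Tnnt3, with changes in the difference of 0.57 and 0.59, and the difference between Tnnt2 and Tnnt3 changed by 0.02 with overlapping samples. With all Tnnt2 probe sets averaged, Tnnt1 minus Tnnt2 changed by 0.35 and Tnnt2 minus Tnnt3 by 0.24.

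Myl1 minus Myl4 changed by 0.25, a difference that was -0.23 when both Myl4 probe sets were averaged. Myl4 had a larger fall than Mylpf, with a change in the difference of -0.54 that was -0.06 with the same averaging. Myh3 and Myh7 overlapped in their difference, with a change of 0.22 and an exact permutation p of 0.3, and so did Actn2 and Actn3 (-0.13, exact permutation p = 0.4). Differences between Myom2 and the other myomesins, 0.64 for Myom1 minus Myom2 and -0.74 for Myom2 minus Myom3, changed sign when all 4 Myom2 probe sets were averaged, at -0.22 and 0.12.

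**Figure D4:**
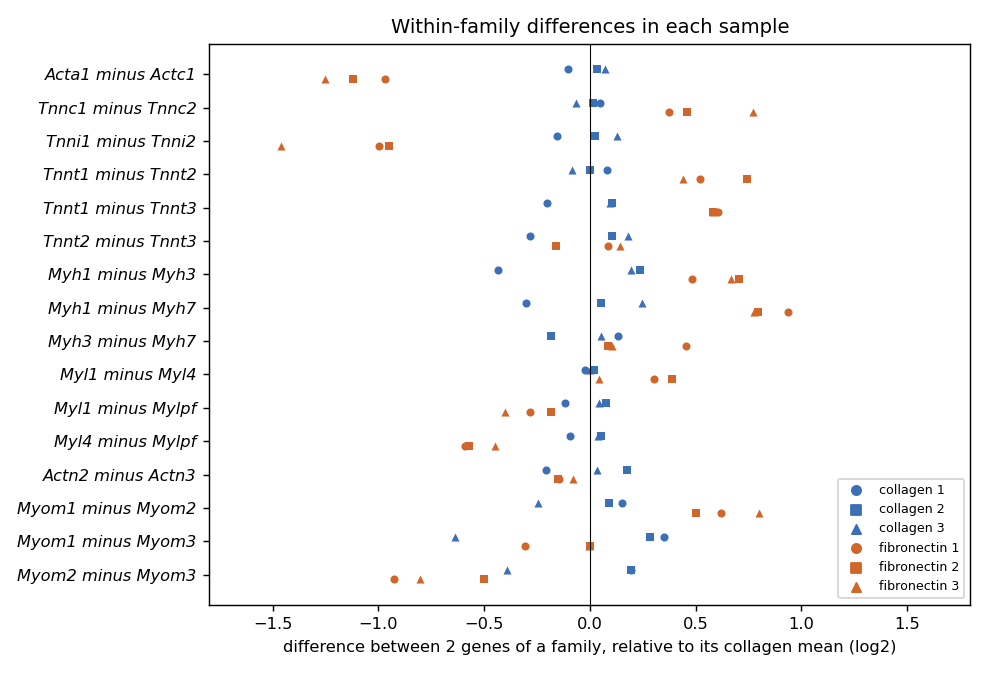
Log2 difference between 2 genes of a family in each sample, relative to its mean on collagen (horizontal axis), for the 16 pairs, with collagen samples in blue and fibronectin samples in orange. Samples of the coatings overlap in Tnnt2 minus Tnnt3, Myh3 minus Myh7, Actn2 minus Actn3 and Myom1 minus Myom3 and are apart in the other 12 pairs, farthest to the left in Acta1 minus Actc1 and Tnni1 minus Tnni2.

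The samples on fibronectin were not alike in these genes. The mean over the 26 tested members was 4.96, 5.02 and 4.95 in the collagen samples and 4.20, 4.21 and 3.91 in the fibronectin samples. Fibronectin replicate 3 was the lowest of its coating in 21 of the 26 members, beside 35% of all genes tested and 27.1% of the 2211 genes that fell. Myog, the differentiation factor, was also lowest there, with signals of 4.90, 4.94 and 4.60 on collagen and 4.17, 4.01 and 3.77 on fibronectin. The SD was larger on fibronectin than on collagen in 18 of the 26, beside 41.9% of all genes tested. Without fibronectin replicate 3, 22 of the 26 fell and 0 rose, beside 16.6% of all genes that fell, and the members' median log2 change was -0.67. A measure of RNA quality, the log2 difference between the 3′ and 5′ control probe sets of Gapdh, ran from 0.33 to 0.46 in collagen samples and from 0.33 to 0.39 in fibronectin samples, with 0.33 in replicate 3. The same measure for Actb was 0.63, 0.72 and 0.71 in the collagen samples and 0.57, 0.65 and 0.61 in the fibronectin samples, lower on average on fibronectin with overlap, and its part in the falls was not tested.

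Other genes of the sarcomere, listed by function and with earlier results known, moved both ways. Of 47 such genes 42 were measured and 31 tested, and 16 fell and 4 rose, with a median log2 change of -0.21. The smallest p-values were those of Synpo2l, a Z disc protein, which fell 1.81-fold, Obsl1, a relative of obscurin, which fell 1.43-fold, Speg, a kinase of striated muscle, which fell 1.37-fold, and Pdlim3, a partner of alpha-actinin at the Z disc, which fell 1.65-fold (adjusted p from 2.16e-05 to 0.000306). The risers, which are named here because there were only 4, were Nexn, an actin-binding Z disc protein, at a log2 change of 0.26, the filamin Flnc at 0.34, Synpo2 at 0.43 and the stress-responsive ankyrin repeat protein Ankrd1 at 0.27. Ankrd1 did not pass without the filter or without collagen replicate 2 (adjusted p = 0.0633; 0.0012 to 0.0633 over the alternatives), and Synpo2 did not with its probe sets averaged (log2 change 0.12, adjusted p = 0.0763).

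Most counterparts of the sarcomere proteins that other cells use did not pass. Of 15 non-muscle myosins, actins, actinins, tropomodulins and related genes 14 were tested, 1 fell, 2 rose and 11 did not pass, with a median log2 change of 0.02. The ones that passed were Myl9, a regulatory light chain of non-muscle and smooth muscle myosin, at -0.36, Tmod2, a tropomodulin, at 0.49 and the tropomyosin Tpm4 at 0.27. With each sample centred on its median, 1 fell and 4 rose, and with probe sets averaged 2 fell and 1 rose of 13 tested. Smooth muscle genes, of which 6 of 10 were tested, had 3 that rose and 1 that fell: Tagln, an actin-binding protein, rose 1.83-fold, Synpo2 rose 1.35-fold and the smooth muscle actin Acta2 rose 1.16-fold, whereas Des, the intermediate filament of all muscle, fell 1.17-fold. Acta2 and Des each passed narrowly (adjusted p of 0.027 and 0.0194). Acta2 was lost without the filter, without collagen replicate 1, 2 or 3 or fibronectin replicate 1 and with its probe sets averaged (adjusted p up to 0.334, from 0.00297), and Des without the filter, without collagen replicate 3 or fibronectin replicate 1 or 3 and with samples centred (up to 0.0686, from 0.00441). Des and Synpo2 are also among the other sarcomere genes.

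**Figure D5:**
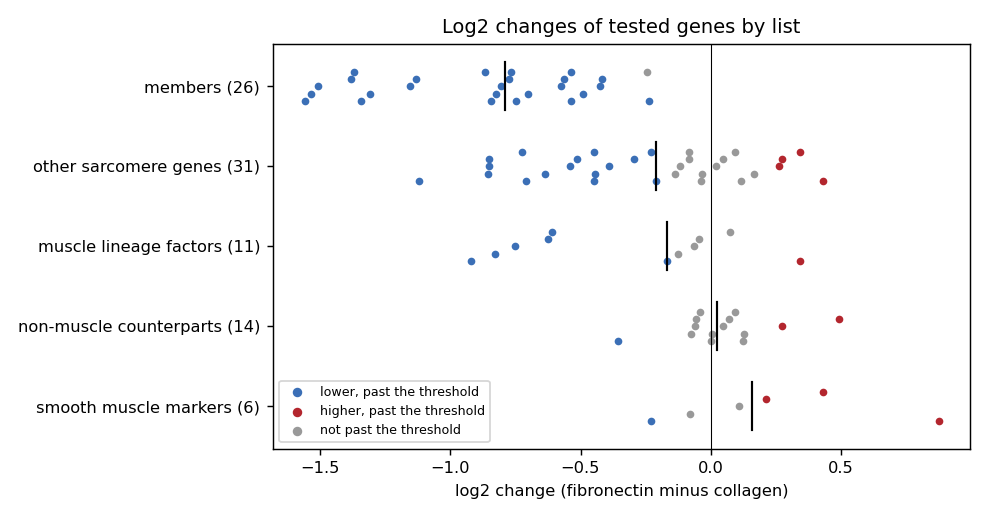
Log2 change, fibronectin minus collagen (horizontal axis), of each tested gene (points) in the 26 tested members and 4 other lists, with the number tested in brackets and black bars at the medians; genes sit at arbitrary heights within a list. The members' points lie between -1.56 and -0.24, and those of the other sarcomere genes, lineage factors, non-muscle counterparts and smooth muscle genes fall on both sides of 0.

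Muscle lineage factors moved both ways. Myog fell 1.78-fold (log2 change -0.83, adjusted p = 0.00132). Mef2c, a partner of the MyoD family on muscle promoters, had signals of 4.16, 4.18 and 4.26 on collagen and 3.23, 3.30 and 3.31 on fibronectin and fell 1.89-fold (adjusted p = 1.92e-05). Mef2a fell 1.54-fold, Pax3, a factor of muscle precursors, fell 1.53-fold, and Srf, which binds CArG boxes, rose 1.27-fold, from 5.57 ± 0.04 to 5.91 ± 0.01 (SD, n = 3; adjusted p = 0.000673). Myod1 and Pax7, markers of the myoblast state, had signals of 10.10 ± 0.03 and 8.89 ± 0.02 on collagen and log2 changes of -0.06 and -0.13, neither past the threshold (adjusted p of 0.289 and 0.086). Pax7 passed under 3 alternatives, with its probe sets averaged at -0.25 (adjusted p = 0.0115; 0.0115 to 0.355 over the alternatives). Of 11 tested lineage genes 6 fell and 1 rose, with a median of -0.17.

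As to the labelled cell type, the myoblast markers Pax7, Myf5 and Myod1 were above the filter in all samples, whereas Ckm, the creatine kinase of mature muscle, was below it. All 6 endothelial markers were below the filter, and so were Ptprc, Adgre1 and Itgam among the macrophage markers, the other 3 adipocyte markers measured besides Pparg, and 7 of 9 cardiac markers, including Nppa, Myh6 and Tnni3. By contrast, Csf1r, Cd68 and Cd14 of the macrophage list and Sox10 and Ngfr of the Schwann cell list were above the filter in all samples. So were Pparg of the adipocyte list and Gata4 and Mybpc3 of the cardiac list. Of the fibroblast list, Col3a1 had signals from 9.24 to 9.58 and Tcf7l2 from 6.17 to 6.46 over all samples, far above the filter. Some single genes of those lists moved with the sarcomere genes: Pparg, a regulator of fat cells, fell 2.7-fold, Cd68, a lysosomal protein of macrophages, fell 2.42-fold, Cd14, a receptor of macrophages, fell 1.37-fold, Ngfr, a neurotrophin receptor, fell 2.61-fold and Gata4, a heart and endoderm factor, fell 1.31-fold (adjusted p from 2.77e-05 to 0.00199). The mean log2 level of the macrophage list ran from 2.29 to 2.42 in collagen samples and from 2.01 to 2.15 in fibronectin samples, with 2 of 3 tested genes lower, and that of the cardiac list from 1.69 to 1.76 in collagen samples and from 1.59 to 1.69 in fibronectin samples, with 1 of 2 lower. For adipocyte markers the level ran from 1.49 to 1.75 in collagen samples and from 1.17 to 1.24 in fibronectin samples, with the 1 tested gene lower, for Schwann cell markers from 3.08 to 3.13 in collagen samples and from 2.56 to 2.73 in fibronectin samples, with 1 of 2 lower, and for fibroblast markers from 2.75 to 2.87 in collagen samples and from 2.80 to 2.92 in fibronectin samples, with 1 of 3 lower and 2 higher. Of those 3, Thy1, a surface protein, had a log2 change of -0.32, Col3a1, a collagen, 0.21 and Tcf7l2, a transcription factor, 0.20. The Thy1 call was lost in 10 of 13 other settings, including without any 1 sample but fibronectin replicate 2 (adjusted p from 0.00688 to 0.111), and the Col3a1 call in 4 of 14, including without fibronectin replicate 2 or 3 (0.00152 to 0.0661). Over all measured genes of these lists, median log2 changes were 0.0004 for macrophage, -0.05 for cardiac and -0.03 for adipocyte markers. For Schwann cell and fibroblast markers they were -0.01 and 0.06. The part of other cell types in the fall of the sarcomere genes was not tested.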

How the data were processed

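Total RNA of 6 samples, 3 per coating, was hybridised to an Affymetrix mouse array; titles gave the groups. The log2 signals deposited by the authors were made with Affymetrix Expression Console and RMA, per the submitters' processing notes. RMA corrects background, normalises across arrays and summarises probes, which removes shifts shared by most genes and compresses changes of dim probe sets. The sources used here give no versions, settings or scan dates, and batches were not tested.

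Of 45101 probe sets 34945 had 1 gene, 932 several, 9160 none listed and 64 were controls; symbols were updated through a reference of assembly GRCm38.p6. The contrast was fitted with limma 3.58.1 in R 4.3.3 (lmFit and eBayes, two-sided, no covariates). Genes of the other lists with no probe set of 1 gene numbered 10 and were not analysed here. The fit was tested on simulated data. Pairs were tested with SciPy 1.17.1 and figures drawn with matplotlib 3.10.9 in Python 3.11.15. Members, gene lists and tests were chosen with earlier results of these data known. All members could be named, up to 4 genes past the threshold of each other list by smallest p, and Pax7, Myod1, Myog and Mef2c. Markers named only as above or below the filter, and genes that rose among the other sarcomere genes, fall outside this rule. Promoter windows were searched for motifs without a test. Arrays give no molecule counts, so the 3 samples per coating limit precision. Alternatives removed the filter or raised it to the 75th percentile, repeated quantile normalisation, centred samples, averaged a gene's probe sets, let the variance follow intensity, weighted arrays, added a replicate block or left out each sample.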

Additional observations from a re-analysis of the deposited data

How the results depend on the processing

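No tested sarcomere gene changed direction under any of the 14 alternatives, and 0 rose under any of them. Over member genes and alternatives, 320 values stayed on their side of the threshold, 22 no longer passed (Myh1, Tcap, Tnnt1 and Tnni2) and 2 newly passed (Tmod1). The filter at the 75th percentile left 9 members and 10 of their probe sets to test, and all fell (9 and 10, against 25 and 28), since fewer were tested; 23.3% of all genes and 21.5% of all probe sets were lower there. Without the filter the median over the 40 was -0.65 in place of -0.79. Leaving out 1 sample gave 21 to 25 members and 25 to 28 probe sets lower, and medians from -0.84 to -0.67. Averaging probe sets gave 21 of 23 members lower (18.7% of all genes), and centring samples gave 22 of 26 (15.0%). Smyd1, Myom2 and Tnni2 lay below the filter with their probe sets averaged and were not tested there. Alternatives for differences within families and for genes outside the members were added after seeing the data. Myod1 changed by 0.0395 with its probe sets averaged, where the difference Myl1 minus Myl4 was -0.23, Myom1 minus Myom2 -0.22 and Myom2 minus Myom3 0.12, each opposite in sign to its value above. With 1 sample left out, Myom1 minus Myom3 ran from -0.42 to 0.073 and Tnnt2 minus Tnnt3 from -0.12 to 0.11, on both sides of 0. The cause was not tested.

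The replicate numbers showed no clear pairing: deviations of same-numbered samples correlated at 0.10, -0.0091 and 0.08 across tested genes. Those of samples with different numbers correlated at -0.14 to 0.10. These values do not tell whether same-numbered samples shared a culture or animal. With the replicate block 25 members and 28 probe sets were lower, with a median of -0.79. Precision is limited by 3 samples per coating and, for the 14 dim members, by signals that averaged below the filter.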
